A study of Mus musculus with 24 samples.

Results

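Integrins and the proteins of focal adhesions were followed across NIH 3T3 cells that expressed TAZ or YAP fusion proteins. The members were 35 listed genes, matched by Ensembl identifier in the count files, and 33 of them had a mean of at least 5 counts over the libraries and were tested among 14361 genes of the 39017 identifiers. Itga2, with a mean count of 2.92, and Itga4, with a mean count of 0.125, fell below that limit. The 33 tested members were 10 integrin alpha subunits, 6 beta subunits, 4 talin, kindlin and vinculin genes, 4 genes of the kinase complex of Ilk, 6 kinases and adaptors, and 3 tensin and zyxin genes.

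NIH 3T3 cells are an immortalized line of mouse embryonic fibroblasts. There were 24 libraries of polyadenylated RNA, 3 in each of 8 groups. All lines were made by stable retroviral transduction with the same vector backbone and selection with G418, and the methods describe replicates from separate transductions. The empty vector (EV), TFE3, TAZ-CAMTA1, YAP-TFE3, TAZ4SA and YAP5SA lines were grown at confluence for 48 h. The CAMTA1 lines and a further empty vector group (EVsub) were collected at sub-confluence. TAZ-CAMTA1 and YAP-TFE3 are the fusion proteins of epithelioid hemangioendothelioma, a vascular sarcoma. TAZ4SA and YAP5SA are hyperactive forms of TAZ and YAP in which serines that the Hippo pathway phosphorylates are changed to alanine, and CAMTA1 and TFE3 are the full-length partners. The introduced proteins are Flag-tagged and expressed from the retroviral vector in selected lines, in fibroblasts and not in the endothelial cells that the tumor resembles, and the p-values below measure the spread between these lines.

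Integrins are pairs of an alpha and a beta subunit that span the plasma membrane and bind the extracellular matrix outside the cell. Inside the cell talin and kindlin bind the beta tail and switch the integrin to its active state, vinculin ties talin to actin, and the kinases Ptk2 (focal adhesion kinase) and Src signal from the plaque through adaptors such as paxillin and Bcar1. Fibroblasts adhere through fibronectin receptors such as the pair of Itga5 and Itgb1, and YAP and TAZ are known to respond to adhesion and to control adhesion genes together with TEAD factors.

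The libraries held 16471181 to 30132586 counts (median 22298975), and levels are given as CPM, counts scaled to a common library size, after TMM scaling, which corrects for a few abundant genes taking a large share of a library. In bulk RNA fewer cells of a type and less RNA per cell cannot be told apart. A difference is called where edgeR's quasi-likelihood test gave a Benjamini-Hochberg adjusted p under 0.05 over the 14361 genes, and fold changes are on the log2 scale with their standard error (SE). Of the mouse genes of the constructs, Camta1 was higher in CAMTA1 cells (1.07 ± 0.18), Wwtr1 (TAZ) was higher in TAZ4SA cells (0.28 ± 0.09) and Yap1 was lower in YAP5SA cells (-0.86 ± 0.08). Tfe3 in TFE3 cells (-0.30 ± 0.14) and the construct genes in the fusion protein cells were not called. Whether reads of the introduced sequences entered these counts was not tested, and the counts are not taken as a measure of the introduced proteins. All 9 fibroblast markers were measured in every group, with a summed level between 11810.0 and 35240.0 CPM. Against EV, 3 of them were called higher and 3 lower in YAP5SA, 2 and 3 in TAZ4SA, and 2 and 1 in TAZ-CAMTA1. The counts were 3 and 1 in YAP-TFE3 and 1 and 2 in EVsub, and none was called with TFE3 or CAMTA1. The shares of all genes called are given further on. Epcam of the epithelial list and Adgre1 and Tyrobp of the leukocyte list had no count in any library, while other markers of both lists were counted. The 6 epithelial markers summed to between 203 and 296 CPM in YAP5SA libraries and to at most 11.4 in the others. The 8 leukocyte markers summed to between 38.0 and 61.5 CPM in YAP5SA and to at most 24.3 elsewhere, the 5 endothelial markers to at most 12.1 CPM anywhere, and the 5 smooth muscle markers ranged from 248 to 390.4 CPM in EV against 1133 to 1937 in YAP-TFE3, 667 to 1308 in EVsub and 1045 to 1302 in CAMTA1. Their part in the results on the members was not tested. Annotations of other genes overlap those of Fermt2, Ilk, Itga1, Itga4, Itga5, Itga6, Itga7, Itga8, Itga9, Itgav, Itgb4, Lims1, Lims2, Nedd9, Parva, Ptk2, Pxn, Tln1, Tln2, Vcl and Zyx on one strand or the other, and since the strand setting of the counting is not given, reads in shared bases of these members cannot be assigned with certainty.

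TAZ, YAP and both fusion proteins bind TEAD factors, so the promoters of the members were searched for the letters of a TEAD site (GGAATG on either strand). The paper reports motifs of other factors as well at sites bound by the fusion proteins. In its human liposarcoma line the fusion and hyperactive proteins mostly occupied distal intergenic sequence, which promoter windows do not cover. RefSeq promoters on GRCm38.p6, 250 bases before to 50 bases after a start, were at hand for 25 of the 35 members (30 promoters), and the letters were found in 3 of the 30 against 14.663% of all 32851 promoters. The letters of an E-box (CACGTG), the site of factors such as TFE3, were in 2 promoters (Ilk and Lims1) against 7.15% of all, and those of an AP-1 site (TGANTCA) in 3 (Zyx, Itga9 and Itga3) against 7.808%. The 250 bases before the start are shown for the 3 members with the TEAD letters, Itga10, Itgb1 and Vcl, whose levels are given further on. The capitals mark GGAATG or its reverse complement, which begins 75 bases before the start in Itga10 (chr3:96645334-96645583, plus strand), 7 bases before it in Itgb1 (chr8:128685404-128685653, plus strand) and 143 bases before it in Vcl (chr14:20929148-20929397, plus strand).
Itga10: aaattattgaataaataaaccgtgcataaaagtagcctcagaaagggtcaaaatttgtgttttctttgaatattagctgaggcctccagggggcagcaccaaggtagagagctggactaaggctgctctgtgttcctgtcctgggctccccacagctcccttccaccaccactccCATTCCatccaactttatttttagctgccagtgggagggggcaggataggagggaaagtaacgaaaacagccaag
Itgb1: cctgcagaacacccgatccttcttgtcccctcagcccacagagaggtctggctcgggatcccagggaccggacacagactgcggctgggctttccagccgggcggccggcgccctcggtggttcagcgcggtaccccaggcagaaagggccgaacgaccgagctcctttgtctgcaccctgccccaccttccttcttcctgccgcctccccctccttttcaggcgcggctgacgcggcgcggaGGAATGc
Vcl: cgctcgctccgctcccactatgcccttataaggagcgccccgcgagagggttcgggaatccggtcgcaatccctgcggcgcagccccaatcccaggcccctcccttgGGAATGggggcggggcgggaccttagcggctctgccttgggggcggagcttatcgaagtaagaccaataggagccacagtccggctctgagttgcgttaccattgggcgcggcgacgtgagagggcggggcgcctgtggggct
A match of letters is a description of these windows and not a binding site.

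Against the empty vector, calls were most frequent with the hyperactive proteins and least frequent with the full-length partners, among members and over all genes. Of the members 81.8% were called in YAP5SA, 63.6% in TAZ4SA, 48.5% in TAZ-CAMTA1 and 39.4% in YAP-TFE3. The share was 33.3% in EVsub, 9.09% in TFE3 and 9.09% in CAMTA1 against EVsub. In YAP5SA cells 27 of 33 members were called, 17 higher and 10 lower, where 71.2% of all tested genes were called, 36.3% higher and 34.9% lower. TAZ4SA cells had 21 called members (15 higher, 6 lower) against 57.5% of all genes, 31.1% higher and 26.4% lower. For the fusion proteins the calls were nearly all rises, with 16 members called in TAZ-CAMTA1 cells (15 higher, 1 lower, 21.5% of all genes) and 13 in YAP-TFE3 cells (12 higher, 1 lower, 15.3% of all genes). Over all genes 12.5% were called higher and 8.98% lower with TAZ-CAMTA1, and 10.6% higher and 4.74% lower with YAP-TFE3. The median log2 fold change of the members was 0.36 with TAZ-CAMTA1 and 0.34 with YAP-TFE3, beside medians of -0.004 and 0 over all genes. In TFE3 cells 3 members were called (1 higher, 2 lower, 3.38% of all genes, 2.36% higher and 1.02% lower), in CAMTA1 cells 3 against EVsub (2 higher, 1 lower, 2.18% of all genes, 1.29% higher and 0.891% lower), and between EVsub and EV 11, 7 higher and 4 lower (22.1% of all genes, 12.5% higher and 9.59% lower).

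The split of rises and falls rests on the scaling and on the filter for the hyperactive proteins. Of the member calls in TAZ4SA cells 71.4% were higher with TMM, 60.9% with RLE size factors and 45.0% with library totals alone. Among all called genes these shares were 54.1%, 51.9% and 41.9%. In YAP5SA cells 63.0% of the member calls were higher with TMM and 47.8% with library totals, beside 51% and 34.5% among all called genes. With only genes of at least 10 counts in every library tested, 50% of the member calls were higher in TAZ4SA and 52.4% in YAP5SA. The shares among all called genes were then 50% and 48.6%. Library totals put the median of all genes at -0.125 (TAZ4SA) and -0.360 (YAP5SA) on the log2 scale, where TMM had it at 0.05 and 0.01. Of the called members, 16 of 27 (YAP5SA), 11 of 21 (TAZ4SA), 10 of 16 (TAZ-CAMTA1) and 8 of 13 (YAP-TFE3) were tested and called under every alternative setting and with each library left out in turn. Itga1, Itga10, Itgb7, Lims2 and Ilk have fewer than 10 counts in some library and were not tested under the filter of at least 10 counts. Of these, Itgb7 and Lims2 (TAZ4SA, YAP5SA and TAZ-CAMTA1), Itga1 (TAZ4SA and TAZ-CAMTA1), Itga10 (YAP5SA) and Lims2 (YAP-TFE3) kept their call in all settings that tested them. The heat map of fold changes shows the comparisons side by side. All confluent groups are set against the same EV libraries, so the columns of that plot are not independent of each other.

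**Figure D1:**
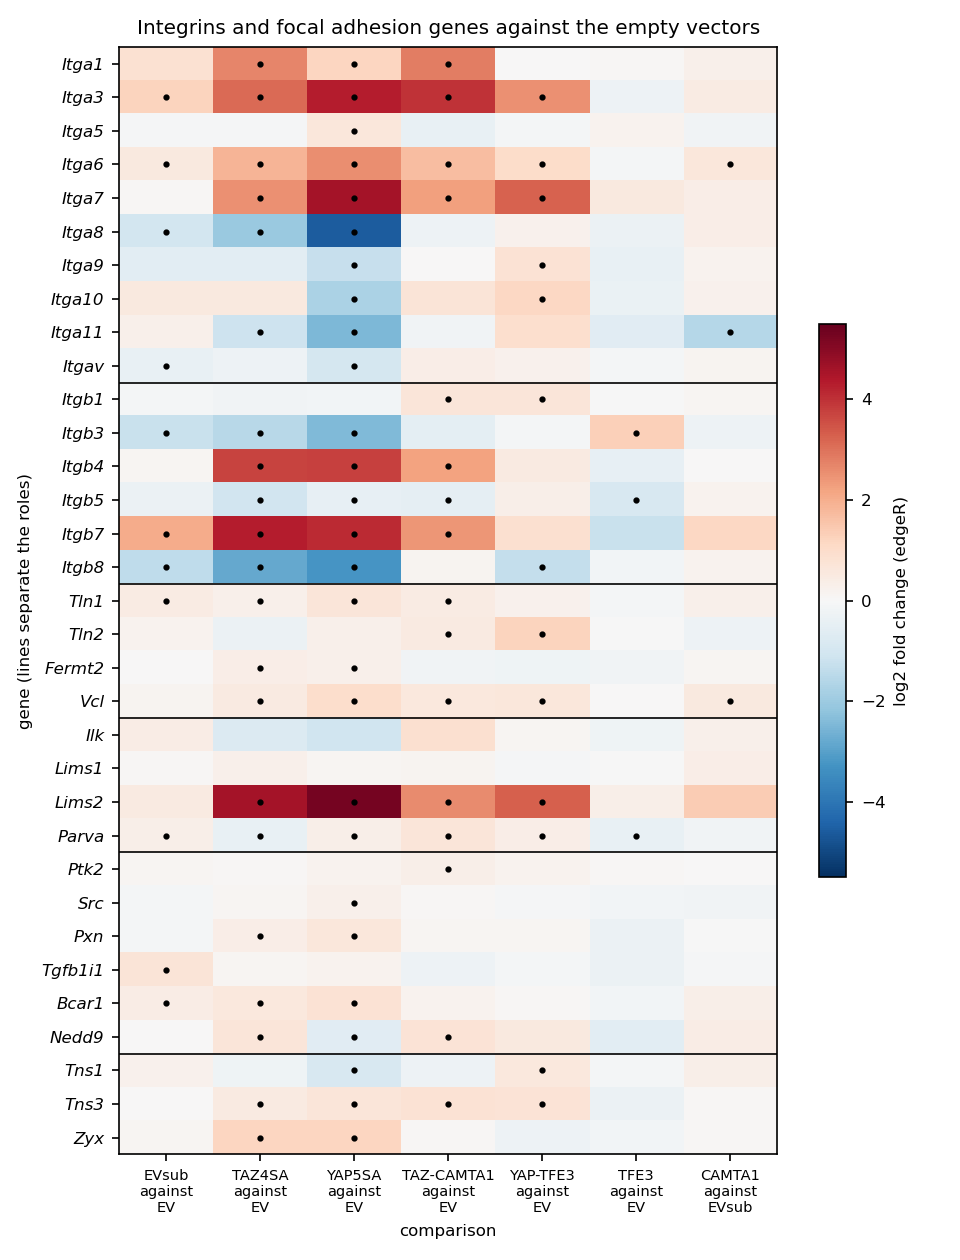
Colour gives the log2 fold change of each of the 33 tested members (rows, in the order of their roles) in 7 comparisons with an empty vector (columns), and dots mark called differences. Itga3, Itga6, Itga7 and Lims2 are red and called with both fusion proteins and both hyperactive proteins, while Itga8, Itgb3 and Itgb8 are blue and called with both hyperactive proteins.

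The alpha subunits that bind laminin, the main protein of basement membranes, rose with every TAZ or YAP protein that was expressed. Itga3 (ENSMUSG00000001507, chr11:95044474-95076801, minus strand) encodes a laminin receptor subunit of epithelial cells and of some fibroblasts. Itga3 was at 15.5, 15.6 and 16.6 CPM in the EV libraries, 46.3, 33.0 and 33.0 in EVsub, 51.9, 56.4 and 46.1 in CAMTA1 and 12.5, 13.8 and 13.2 in TFE3. TAZ-CAMTA1 cells had 189, 273 and 286 CPM of Itga3, YAP-TFE3 cells 132, 84.7 and 55.9, TAZ4SA cells 124, 119 and 166 and YAP5SA cells 387, 279 and 275. Of the Itga3 values, the EVsub, TAZ-CAMTA1, YAP-TFE3, TAZ4SA and YAP5SA libraries were all above the EV range, the TFE3 libraries were all below it, and CAMTA1 overlapped EVsub. The log2 fold change was 4.30 ± 0.26 (SE, adjusted p = 6.17e-12) in YAP5SA, 3.97 ± 0.25 (SE, adjusted p = 1.28e-09) in TAZ-CAMTA1, 3.10 ± 0.24 (SE, adjusted p = 1.14e-09) in TAZ4SA and 2.51 ± 0.24 (SE, adjusted p = 1.7e-07) in YAP-TFE3. At sub-confluence the EVsub cells were also higher than EV, by 1.23 ± 0.23 (SE, adjusted p = 0.000685).

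Itga6 (ENSMUSG00000027111, chr2:71745616-71858416, plus strand) pairs with Itgb1 or, in hemidesmosomes, with Itgb4. Itga6 was at 33.0, 33.6 and 29.8 CPM in the EV libraries, 59.7, 42.0 and 38.2 in EVsub, 85.4, 70.9 and 60.5 in CAMTA1 and 30.2, 28.8 and 29.5 in TFE3. For Itga6 the fusion proteins gave 80.3, 108 and 125 CPM (TAZ-CAMTA1) and 68.7, 67.4 and 58.6 (YAP-TFE3), and the hyperactive forms 130.2, 116 and 102 (TAZ4SA) and 178, 212 and 173 (YAP5SA). Of the Itga6 values, the EVsub, TAZ-CAMTA1, YAP-TFE3, TAZ4SA and YAP5SA libraries were all above the EV range, TFE3 overlapped it, and CAMTA1 lay above EVsub. Its rise was 2.55 ± 0.17 (SE, adjusted p = 3.33e-11) in YAP5SA, 1.85 ± 0.17 (SE, adjusted p = 8.61e-09) in TAZ4SA, 1.70 ± 0.17 (SE, adjusted p = 1.57e-07) in TAZ-CAMTA1 and 1.01 ± 0.17 (SE, adjusted p = 0.000142) in YAP-TFE3, with smaller rises of 0.54 ± 0.16 (SE, adjusted p = 0.0224) in EVsub and 0.63 ± 0.16 (SE, adjusted p = 0.0414) in CAMTA1 against EVsub. The Itga6 difference of EVsub from EV lost its call without EV replicate 1 or 3 or EVsub replicate 1 (adjusted p = 0.0542, 0.0935 and 0.191) and with only the 2 groups in the fit (adjusted p = 0.0812). For Itga6 in CAMTA1 against EVsub the call was lost without CAMTA1 replicate 1 or 2 or EVsub replicate 2 or 3 (adjusted p = 0.241, 0.113, 0.228 and 0.141) and with only the 2 groups in the fit (adjusted p = 0.21).

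Itga7 (ENSMUSG00000025348, chr10:128933818-128958282, plus strand) is the laminin receptor subunit of muscle. Itga7 was at 3.04, 4.49 and 3.63 CPM in the EV libraries, 3.60, 4.24 and 3.89 in EVsub, 6.20, 3.57 and 5.13 in CAMTA1 and 5.90, 6.12 and 4.01 in TFE3. For Itga7 the fusion proteins gave 17.99, 16.7 and 18.7 CPM (TAZ-CAMTA1) and 57.1, 26.1 and 22.2 (YAP-TFE3), and the hyperactive forms 19.6, 29.8 and 15.3 (TAZ4SA) and 92.1, 89.8 and 87.6 (YAP5SA). Of the Itga7 values, the TAZ-CAMTA1, YAP-TFE3, TAZ4SA and YAP5SA libraries were all above the EV range, EVsub and TFE3 overlapped it, and CAMTA1 overlapped EVsub. YAP-TFE3 replicate 1 was the highest of its group. The log2 fold change was 4.60 ± 0.32 (SE, adjusted p = 4.5e-11) in YAP5SA, 3.24 ± 0.30 (SE, adjusted p = 1.58e-07) in YAP-TFE3, 2.53 ± 0.30 (SE, adjusted p = 4.17e-07) in TAZ4SA and 2.26 ± 0.30 (SE, adjusted p = 9.12e-06) in TAZ-CAMTA1. Of the 5 smooth muscle markers, 4 were called higher and 1 lower in YAP5SA, 3 and 1 in TAZ4SA, and 2 were called higher in YAP-TFE3 and 2 in TAZ-CAMTA1. The shares of all genes called were 71.2%, 57.5%, 15.3% and 21.5% in that order. The median log2 fold changes of the markers were 2.27, 2.44, 1.69 and 0.99 in the same order. Their summed level was 248 to 390.4 CPM in EV and 1133 to 1937 in YAP-TFE3, which overlaps 667 to 1308 in EVsub. It was 319 to 360.3 CPM in YAP5SA, 215 to 312 in TAZ4SA and 511 to 669.7 in TAZ-CAMTA1, and their part in the Itga7 rise was not tested.

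The subunits that bind collagen moved apart from each other. Itga1 (ENSMUSG00000042284, chr13:114953096-115101964, minus strand), a collagen receptor subunit, was low, and the annotation of Pelo overlaps it on the same strand. Itga1 was at 0.464, 0.764 and 0.575 CPM in the EV libraries, 0.911, 1.39 and 0.887 in EVsub, 1.26, 1.38 and 1.27 in CAMTA1 and 0.268, 0.886 and 0.697 in TFE3. With TAZ-CAMTA1 it stood at 4.81, 4.10 and 3.91 CPM, with YAP-TFE3 0.601, 0.368 and 0.891, with TAZ4SA 3.12, 3.37 and 5.14 and with YAP5SA 1.54, 0.736 and 1.90. Of the Itga1 values, the EVsub, TAZ-CAMTA1 and TAZ4SA libraries were all above the EV range, TFE3, YAP-TFE3 and YAP5SA overlapped it, and CAMTA1 overlapped EVsub. It rose by 2.83 ± 0.36 (SE, adjusted p = 5.57e-06) with TAZ-CAMTA1 and 2.70 ± 0.37 (SE, adjusted p = 2.23e-06) with TAZ4SA, and by 1.19 ± 0.40 (SE, adjusted p = 0.0104) with YAP5SA, and with YAP-TFE3 the value was 0.03 ± 0.43 (SE, adjusted p = 0.979). For Itga1 in YAP5SA against EV the call was lost without YAP5SA replicate 3 (adjusted p = 0.0661) and with library totals as the only scaling (adjusted p = 0.082).

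Itga11 (ENSMUSG00000032243, chr9:62677826-62783982, plus strand), the receptor subunit for fibrillar collagen on mesenchymal cells, went the other way. Itga11 was at 42.9, 48.1 and 44.8 CPM in the EV libraries, 29.0, 82.3 and 53.9 in EVsub, 10.1, 16.5 and 29.6 in CAMTA1 and 31.8, 31.1 and 25.9 in TFE3. For Itga11 the fusion proteins gave 47.4, 34.4 and 38.3 CPM (TAZ-CAMTA1) and 127, 71.8 and 56.5 (YAP-TFE3), and the hyperactive forms 13.7, 21.9 and 26.9 (TAZ4SA) and 7.90, 8.19 and 8.55 (YAP5SA). Of the Itga11 values, the YAP-TFE3 libraries were all above the EV range, the TFE3, TAZ4SA and YAP5SA libraries were all below it, EVsub and TAZ-CAMTA1 overlapped it, and CAMTA1 overlapped EVsub. It fell in YAP5SA, -2.46 ± 0.37 (SE, adjusted p = 4.12e-06), in TAZ4SA, -1.12 ± 0.35 (SE, adjusted p = 0.00881), and in CAMTA1 against EVsub, -1.55 ± 0.35 (SE, adjusted p = 0.0184). The EVsub libraries were spread widely, from 29.0 to 82.3 CPM. The Itga11 difference of TAZ4SA from EV lost its call without TAZ4SA replicate 1 (adjusted p = 0.0577). For Itga11 in CAMTA1 against EVsub the call was lost without CAMTA1 replicate 1 or 2 or EVsub replicate 2 (adjusted p = 0.12, 0.1 and 0.181) and with only the 2 groups in the fit (adjusted p = 0.2).

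Itga10 (ENSMUSG00000090210, chr3:96645584-96664519, plus strand), a collagen receptor subunit of cartilage, was at the low end of what was measured. Itga10 was at 0.717, 1.05 and 0.619 CPM in the EV libraries, 1.18, 0.890 and 1.35 in EVsub, 1.55, 1.24 and 1.21 in CAMTA1 and 0.804, 0.380 and 0.662 in TFE3. For Itga10 the fusion proteins gave 0.970, 1.30 and 1.64 CPM (TAZ-CAMTA1) and 1.75, 2.34 and 1.10 (YAP-TFE3), and the hyperactive forms 1.54, 0.899 and 1.01 (TAZ4SA) and 0.411, 0.147 and 0.127 (YAP5SA). Of the Itga10 values, the YAP-TFE3 libraries were all above the EV range, the YAP5SA libraries were all below it, EVsub, TFE3, TAZ-CAMTA1 and TAZ4SA overlapped it, and CAMTA1 overlapped EVsub. The fold change was -1.74 ± 0.47 (SE, adjusted p = 0.00217) in YAP5SA and 1.14 ± 0.34 (SE, adjusted p = 0.0267) in YAP-TFE3. The Itga10 difference of YAP-TFE3 from EV lost its call without EV replicate 1 or 3 or YAP-TFE3 replicate 1 or 2 (adjusted p = 0.101, 0.129, 0.0838 and 0.167) and with only the 2 groups in the fit (adjusted p = 0.0623). Itga2, the remaining collagen subunit of the list, reached at most 0.368 CPM in a library and was not tested.

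Itga5, Itgav and Itga8 recognise the RGD sequence of fibronectin, vitronectin and related proteins, and each was called lower or higher in YAP5SA. Itga5 (ENSMUSG00000000555, chr15:103344286-103366763, minus strand), the fibronectin receptor subunit, was called in 1 comparison with an empty vector. Itga5 was at 229, 206 and 234 CPM in the EV libraries, 180.5, 279 and 181 in EVsub, 186, 186 and 187 in CAMTA1 and 263, 272 and 239 in TFE3. TAZ-CAMTA1 cells had 172, 165 and 170.1 CPM of Itga5, YAP-TFE3 cells 200.3, 208 and 212, TAZ4SA cells 217, 249.9 and 166 and YAP5SA cells 374, 292 and 363. Of the Itga5 values, the TFE3 and YAP5SA libraries were all above the EV range, the TAZ-CAMTA1 libraries were all below it, EVsub, YAP-TFE3 and TAZ4SA overlapped it, and CAMTA1 overlapped EVsub. That was YAP5SA, 0.62 ± 0.15 (SE, adjusted p = 0.000735). Itga5 was no longer called between YAP5SA and EV with library totals as the only scaling (adjusted p = 0.083). Itgav (ENSMUSG00000027087, chr2:83724397-83806916, plus strand), which pairs with several beta subunits, was lower in YAP5SA. Itgav was at 198, 189 and 194 CPM in the EV libraries, 154, 139 and 143 in EVsub, 170.1, 158 and 151 in CAMTA1 and 178, 178 and 177 in TFE3. With TAZ-CAMTA1 it stood at 237, 248 and 262 CPM, with YAP-TFE3 266, 223 and 201, with TAZ4SA 132, 129.9 and 210.3 and with YAP5SA 105, 94.6 and 96.8. Of the Itgav values, the TAZ-CAMTA1 and YAP-TFE3 libraries were all above the EV range, the EVsub, TFE3 and YAP5SA libraries were all below it, TAZ4SA overlapped it, and CAMTA1 overlapped EVsub. The fall was -0.97 ± 0.14 (SE, adjusted p = 1.71e-06) in YAP5SA and -0.41 ± 0.14 (SE, adjusted p = 0.0315) in EVsub. For Itgav in EVsub against EV the call was lost without EV replicate 1 or 2 or 3 or EVsub replicate 1 or 2 or 3 (adjusted p = 0.0868, 0.0507, 0.0812, 0.0508, 0.104 and 0.0638) and with library totals as the only scaling (adjusted p = 0.0905).

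Itga8 (ENSMUSG00000026768, chr2:12106632-12301922, minus strand), a receptor subunit for nephronectin, had the deepest fall of all members. Itga8 was at 46.6, 71.2 and 49.5 CPM in the EV libraries, 23.9, 17.3 and 42.2 in EVsub, 24.5, 40.0 and 42.7 in CAMTA1 and 47.8, 42.1 and 44.1 in TFE3. For Itga8 the fusion proteins gave 50.1, 39.8 and 46.1 CPM (TAZ-CAMTA1) and 77.8, 66.6 and 52.5 (YAP-TFE3), and the hyperactive forms 11.3, 14.5 and 15.1 (TAZ4SA) and 1.49, 3.29 and 2.28 (YAP5SA). Of the Itga8 values, the EVsub, TAZ4SA and YAP5SA libraries were all below the EV range, TFE3, TAZ-CAMTA1 and YAP-TFE3 overlapped it, and CAMTA1 overlapped EVsub. The log2 fold change was -4.56 ± 0.33 (SE, adjusted p = 8.39e-11) in YAP5SA, -2.03 ± 0.28 (SE, adjusted p = 2.23e-06) in TAZ4SA and -1.01 ± 0.26 (SE, adjusted p = 0.00836) in EVsub, and -0.30 ± 0.26 (SE, adjusted p = 0.455) and 0.24 ± 0.26 (SE, adjusted p = 0.619) in the TAZ-CAMTA1 and YAP-TFE3 cells. The Itga8 difference of EVsub from EV lost its call without EVsub replicate 2 (adjusted p = 0.0607) and with only the 2 groups in the fit (adjusted p = 0.0651).

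Itga9 (ENSMUSG00000039115, chr9:118606690-118901003, plus strand), whose product binds tenascin-C, was low. Itga9 was at 3.25, 2.39 and 2.43 CPM in the EV libraries, 1.32, 2.28 and 1.77 in EVsub, 2.13, 1.90 and 2.16 in CAMTA1 and 2.28, 2.11 and 1.74 in TFE3. TAZ-CAMTA1 cells had 3.56, 2.14 and 2.55 CPM of Itga9, YAP-TFE3 cells 6.06, 3.58 and 4.33, TAZ4SA cells 1.59, 1.498 and 2.20 and YAP5SA cells 1.03, 0.981 and 1.33. Of the Itga9 values, the YAP-TFE3 libraries were all above the EV range, the EVsub, TFE3, TAZ4SA and YAP5SA libraries were all below it, TAZ-CAMTA1 overlapped it, and CAMTA1 overlapped EVsub. It fell in YAP5SA (-1.28 ± 0.27 SE, adjusted p = 0.000246) and rose in YAP-TFE3 (0.78 ± 0.24 SE, adjusted p = 0.0275). Itga9 was no longer called between YAP-TFE3 and EV without EV replicate 2 or 3 or YAP-TFE3 replicate 1 (adjusted p = 0.0888, 0.115 and 0.259) and with only the 2 groups in the fit (adjusted p = 0.0649). Its relative Itga4 had at most 0.0501 CPM in a library.

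To compare levels between genes, CPM were divided by the exon length of each gene in kb, and each alpha subunit was given as a share of the sum over the 12 alpha subunits in its library. The subunits were sorted by their textbook ligand (laminin for Itga3, Itga6 and Itga7, collagen for Itga1, Itga2, Itga10 and Itga11, RGD for Itga5, Itga8 and Itgav), a grouping made after the values had been seen and given without a test. The laminin-binding share was 7.83% ± 0.301 (SD, n = 3) in EV and 7.14% ± 0.198 in TFE3. It was 14.9% ± 4.68 in EVsub and 22.2% ± 2.61 in CAMTA1. With YAP-TFE3 it was 23.0% ± 3.996, with TAZ4SA 38.2% ± 2.97, with TAZ-CAMTA1 44.0% ± 5.70 and with YAP5SA 51.8% ± 3.36. The EVsub libraries overlapped those of CAMTA1, the YAP-TFE3 libraries those of CAMTA1, and the TAZ4SA libraries those of TAZ-CAMTA1. The order of these neighbours is therefore not read as a result, and whether their shares differ was not tested. The collagen-binding share was 10.4% ± 0.730 in EV, 14.1% ± 3.47 in YAP-TFE3, 6.47% ± 1.51 in TAZ-CAMTA1, 4.37% ± 1.19 in TAZ4SA and 1.03% ± 0.105 in YAP5SA. The YAP-TFE3 libraries lay above the EV range, and those of the other 3 groups below it. The RGD-binding share was 81.4% ± 0.965 in EV, 49.2% ± 4.10 in TAZ-CAMTA1 and 47.1% ± 3.31 in YAP5SA. A share also moves when another subunit of the sum does. In CPM per kb, the collagen-binding sums of TAZ-CAMTA1 (9.689, 7.1847 and 7.9987) overlapped those of EV (8.5283, 9.6314 and 8.8829). Those of TAZ4SA and YAP5SA lay below the EV sums and those of YAP-TFE3 above. The RGD-binding sums of YAP5SA (85.791, 68.4514 and 82.986) overlapped those of EV (71.1038, 69.0549 and 72.2431). The RGD-binding sums of TAZ-CAMTA1 (63.7385, 61.9148 and 65.1229) lay below those of EV.

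**Figure D2:**
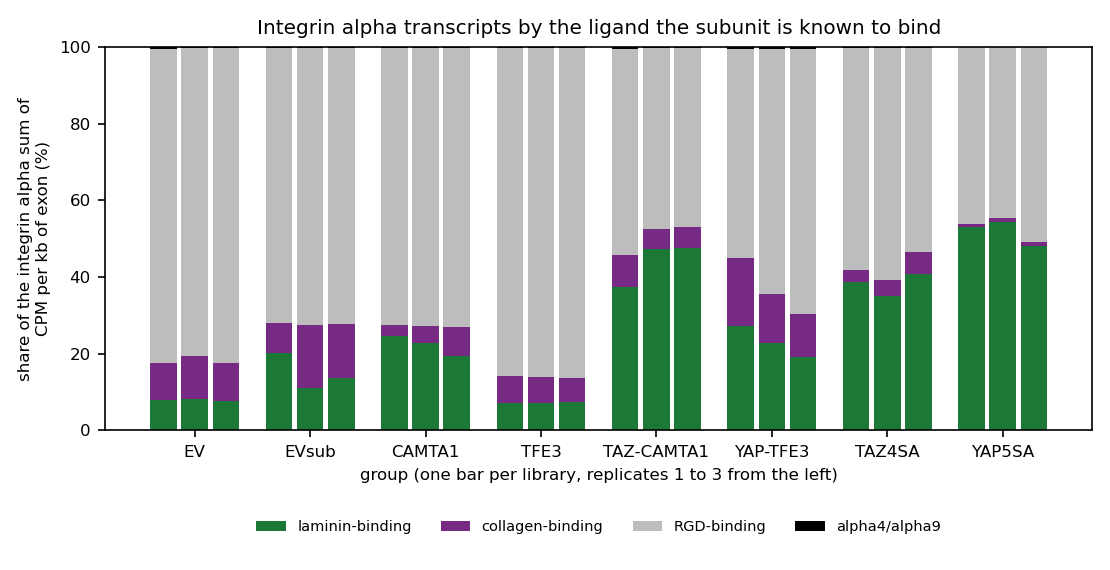
Each bar is 1 library and shows how the sum of CPM per kb of exon over the 12 integrin alpha subunits (vertical axis, percent) divides by the ligand the subunit is known to bind. The laminin-binding share is at most 8.15% in the EV and TFE3 libraries and between 48.0% and 54.3% in YAP5SA.

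Among the beta subunits, Itgb1 (ENSMUSG00000025809, chr8:128685654-128733200, plus strand), the common partner of most alpha subunits, was the member with the highest level per kb in EV, 222 CPM per kb. Itgb1 was at 843, 992 and 881 CPM in the EV libraries, 877, 864 and 818 in EVsub, 927, 927 and 886 in CAMTA1 and 898, 860.1 and 912 in TFE3. With TAZ-CAMTA1 it stood at 1444, 1461 and 1399.7 CPM, with YAP-TFE3 1691, 1276 and 1304, with TAZ4SA 786, 741 and 829.6 and with YAP5SA 803, 829 and 787. Of the Itgb1 values, the TAZ-CAMTA1 and YAP-TFE3 libraries were all above the EV range, the TAZ4SA and YAP5SA libraries were all below it, EVsub and TFE3 overlapped it, and CAMTA1 lay above EVsub. It rose with the fusion proteins, by 0.66 ± 0.11 (SE, adjusted p = 8.88e-05) in TAZ-CAMTA1 and 0.65 ± 0.11 (SE, adjusted p = 0.000147) in YAP-TFE3. For TAZ4SA the value was -0.20 ± 0.11 (SE, adjusted p = 0.105) and for YAP5SA -0.17 ± 0.11 (SE, adjusted p = 0.162). In direct contrasts the fusion proteins were higher, by 0.87 ± 0.11 (SE, adjusted p = 8.74e-07) for TAZ-CAMTA1 against TAZ4SA and by 0.82 ± 0.11 (SE, adjusted p = 5.66e-07) for YAP-TFE3 against YAP5SA. Itgb1 made up between 82.0% and 90.5% of the per-kb sum of the 6 beta subunits in the group means.

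Itgb4 (ENSMUSG00000020758, chr11:115974709-116008412, plus strand), the hemidesmosome partner of Itga6 in epithelia, was low in fibroblasts with an empty vector. Itgb4 was at 0.886, 0.716 and 1.02 CPM in the EV libraries, 1.00, 0.961 and 0.845 in EVsub, 1.30, 0.999 and 0.556 in CAMTA1 and 0.581, 0.802 and 0.523 in TFE3. TAZ-CAMTA1 cells had 3.92, 4.33 and 4.07 CPM of Itgb4, YAP-TFE3 cells 1.80, 0.736 and 1.23, TAZ4SA cells 11.0, 14.2 and 9.80 and YAP5SA cells 16.2, 8.68 and 11.2. Of the Itgb4 values, the TAZ-CAMTA1, TAZ4SA and YAP5SA libraries were all above the EV range, EVsub, TFE3 and YAP-TFE3 overlapped it, and CAMTA1 overlapped EVsub. It rose by 3.77 ± 0.31 (SE, adjusted p = 5.18e-10) in YAP5SA, 3.72 ± 0.31 (SE, adjusted p = 2.39e-09) in TAZ4SA and 2.22 ± 0.31 (SE, adjusted p = 1.7e-05) in TAZ-CAMTA1, and with YAP-TFE3 the value was 0.48 ± 0.34 (SE, adjusted p = 0.402). The 6 epithelial markers summed to 203 to 296 CPM in YAP5SA, 9.45 to 11.4 in TAZ4SA, 2.87 to 4.005 in TAZ-CAMTA1 and 5.52 to 5.69 in YAP-TFE3, against 2.49 to 4.72 in EV. Of the 2 that were tested, 1 was called higher and 1 lower in both YAP5SA and TAZ4SA, and 1 was called higher in TAZ-CAMTA1 and in YAP-TFE3. The shares of all genes called were 71.2%, 57.5%, 21.5% and 15.3% in that order. Epcam had no count in any library, and the part of these markers in the Itgb4 rise was not tested.

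Itgb7 (ENSMUSG00000001281, chr15:102215995-102231944, minus strand), a subunit known from lymphocytes, had the widest range of group means among the tested members, 5.53 on the log2 scale. Itgb7 was at 0.633, 1.10 and 0.663 CPM in the EV libraries, 4.01, 4.02 and 1.69 in EVsub, 11.9, 4.995 and 4.39 in CAMTA1 and 0.447, 0.295 and 0.279 in TFE3. For Itgb7 the fusion proteins gave 2.99, 5.03 and 5.03 CPM (TAZ-CAMTA1) and 1.60, 1.37 and 1.49 (YAP-TFE3), and the hyperactive forms 21.7, 15.7 and 9.89 (TAZ4SA) and 13.0, 16.1 and 11.7 (YAP5SA). Of the Itgb7 values, the EVsub, TAZ-CAMTA1, YAP-TFE3, TAZ4SA and YAP5SA libraries were all above the EV range, the TFE3 libraries were all below it, and CAMTA1 lay above EVsub. The rise was 4.30 ± 0.42 (SE, adjusted p = 2.68e-08) in TAZ4SA, 4.10 ± 0.42 (SE, adjusted p = 1.74e-08) in YAP5SA, 2.45 ± 0.43 (SE, adjusted p = 0.000232) in TAZ-CAMTA1 and 2.03 ± 0.43 (SE, adjusted p = 0.00198) in EVsub. Itga4, an alpha partner of Itgb7 among the members, had a mean count of 0.125. The 8 leukocyte markers summed to 38.0 to 61.5 CPM in YAP5SA, 9.10 to 15.8 in TAZ4SA and 12.7 to 13.1 in TAZ-CAMTA1. Their sum was 10.2 to 16.6 CPM in EVsub and 16.6 to 20.1 in EV. Adgre1 and Tyrobp of that list had no count in any library. Of the 2 leukocyte markers tested, 1 was called higher and 1 lower in both YAP5SA and TAZ4SA and 1 higher in EVsub. The shares of all genes called were 71.2%, 57.5% and 22.1% in that order. The part of the leukocyte markers in the Itgb7 rise was not tested.

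Itgb3 (ENSMUSG00000020689, chr11:104608000-104670476, plus strand), Itgb5 and Itgb8 are partners of Itgav. Itgb3 was at 11.9, 13.1 and 11.1 CPM in the EV libraries, 3.78, 5.30 and 6.47 in EVsub, 3.57, 4.19 and 5.04 in CAMTA1 and 31.9, 29.8 and 28.7 in TFE3. With TAZ-CAMTA1 it stood at 11.2, 6.19 and 7.74 CPM, with YAP-TFE3 12.8, 10.6 and 10.5, with TAZ4SA 5.75, 4.87 and 2.02 and with YAP5SA 1.08, 3.73 and 1.77. Of the Itgb3 values, the TFE3 libraries were all above the EV range, the EVsub, TAZ4SA and YAP5SA libraries were all below it, TAZ-CAMTA1 and YAP-TFE3 overlapped it, and CAMTA1 overlapped EVsub. Itgb3 changed by -2.43 ± 0.35 (SE, adjusted p = 1.79e-06) in YAP5SA, -1.53 ± 0.32 (SE, adjusted p = 0.000382) in TAZ4SA and -1.21 ± 0.31 (SE, adjusted p = 0.0077) in EVsub, and by 1.33 ± 0.30 (SE, adjusted p = 0.014) in TFE3. For Itgb3 in TFE3 against EV the call was lost without EV replicate 1 or 3 or TFE3 replicate 1 or 2 (adjusted p = 0.055, 0.0738, 0.0508 and 0.0514).

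Itgb5 (ENSMUSG00000022817, chr16:33829665-33949338, plus strand) encodes a vitronectin receptor subunit. Itgb5 was at 139, 176 and 154 CPM in the EV libraries, 100.2, 138 and 138 in EVsub, 135, 153 and 148 in CAMTA1 and 94.6, 84.7 and 78.8 in TFE3. For Itgb5 the fusion proteins gave 149, 96.1 and 87.8 CPM (TAZ-CAMTA1) and 213, 175 and 207 (YAP-TFE3), and the hyperactive forms 65.5, 80.5 and 79.6 (TAZ4SA) and 119, 105 and 124 (YAP5SA). Of the Itgb5 values, the EVsub, TFE3, TAZ4SA and YAP5SA libraries were all below the EV range, TAZ-CAMTA1 and YAP-TFE3 overlapped it, and CAMTA1 overlapped EVsub. It was lower in TAZ4SA, -1.06 ± 0.16 (SE, adjusted p = 1.13e-05), in TFE3, -0.86 ± 0.16 (SE, adjusted p = 0.00327), in TAZ-CAMTA1, -0.50 ± 0.16 (SE, adjusted p = 0.0304), and in YAP5SA, -0.43 ± 0.16 (SE, adjusted p = 0.0204). The Itgb5 difference of TAZ-CAMTA1 from EV lost its call without EV replicate 2 or 3 or TAZ-CAMTA1 replicate 2 or 3 (adjusted p = 0.111, 0.0712, 0.151 and 0.184) and with only the 2 groups in the fit (adjusted p = 0.0731). For Itgb5 in YAP5SA against EV the call was lost without EV replicate 2 or YAP5SA replicate 2 (adjusted p = 0.0941 and 0.0821).

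Itgb8 (ENSMUSG00000025321, chr12:119158022-119238802, minus strand), a subunit known for the activation of latent TGF-beta, separated the fusion proteins. Itgb8 was at 24.7, 23.0 and 23.8 CPM in the EV libraries, 9.47, 6.23 and 11.4 in EVsub, 9.84, 10.7 and 10.04 in CAMTA1 and 21.5, 20.8 and 22.8 in TFE3. For Itgb8 the fusion proteins gave 24.4, 27.1 and 28.2 CPM (TAZ-CAMTA1) and 7.07, 10.3 and 11.4 (YAP-TFE3), and the hyperactive forms 2.63, 1.65 and 5.54 (TAZ4SA) and 2.26, 2.50 and 2.91 (YAP5SA). Of the Itgb8 values, the EVsub, TFE3, YAP-TFE3, TAZ4SA and YAP5SA libraries were all below the EV range, TAZ-CAMTA1 overlapped it, and CAMTA1 overlapped EVsub. It fell with YAP5SA (-3.22 ± 0.28 SE, adjusted p = 1.36e-09), TAZ4SA (-2.81 ± 0.27 SE, adjusted p = 2.06e-08) and YAP-TFE3 (-1.31 ± 0.24 SE, adjusted p = 0.000577), and at sub-confluence (-1.40 ± 0.25 SE, adjusted p = 0.00034). With TAZ-CAMTA1 the value was 0.16 ± 0.24 (SE, adjusted p = 0.686), and TAZ-CAMTA1 was higher than YAP-TFE3 by 1.47 ± 0.24 (SE, adjusted p = 0.000302).

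**Figure D3:**
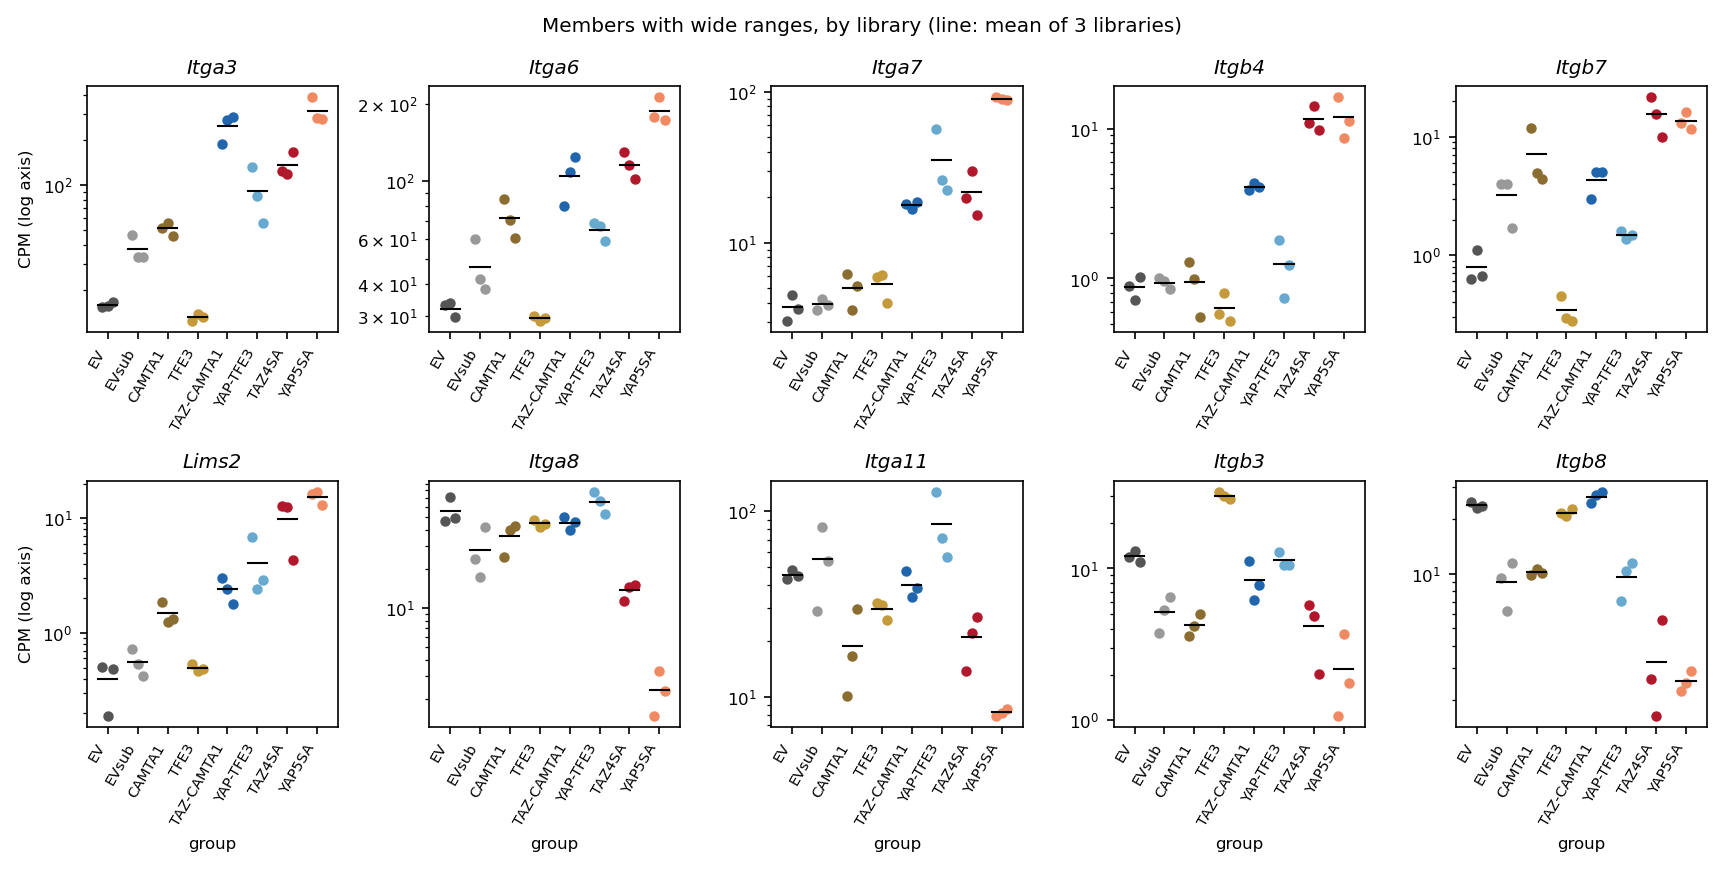
Each point is the CPM of 1 library on a log axis, by group, for 6 members that were called higher (Itga3, Itga6, Itga7, Itgb4, Itgb7, Lims2) and 4 that were called lower (Itga8, Itga11, Itgb3, Itgb8) in TAZ4SA and YAP5SA cells, with a line at the mean of the 3 libraries. The Itga8 points of YAP5SA lie below those of every other group, and the Itgb3 points of TFE3 lie above those of every other group.

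Tln1 and Vcl, which join integrins to actin, rose by less than 1 on the log2 scale where they were called. Tln1 (ENSMUSG00000028465, chr4:43531519-43562691, minus strand) encodes talin, the activator of integrins, and overlaps Creb3 on the other strand. Tln1 was at 279, 260.5 and 294 CPM in the EV libraries, 376, 419 and 348 in EVsub, 461, 466 and 459.8 in CAMTA1 and 265, 262 and 238 in TFE3. With TAZ-CAMTA1 it stood at 331, 389.7 and 424 CPM, with YAP-TFE3 324, 349 and 316, with TAZ4SA 326, 332 and 348 and with YAP5SA 509, 374 and 449. Of the Tln1 values, the EVsub, TAZ-CAMTA1, YAP-TFE3, TAZ4SA and YAP5SA libraries were all above the EV range, TFE3 overlapped it, and CAMTA1 lay above EVsub. It rose by 0.68 ± 0.11 (SE, adjusted p = 1.29e-05) in YAP5SA, 0.46 ± 0.11 (SE, adjusted p = 0.00466) in TAZ-CAMTA1, 0.45 ± 0.11 (SE, adjusted p = 0.00539) in EVsub and 0.27 ± 0.11 (SE, adjusted p = 0.0422) in TAZ4SA. For Tln1 in TAZ4SA against EV the call was lost without EV replicate 1 or 2 or TAZ4SA replicate 1 or 2 or 3 (adjusted p = 0.081, 0.138, 0.0566, 0.06 and 0.0875) and with RLE size factors, library totals as the only scaling, low counts kept, at least 10 counts in every library or only the 2 groups in the fit (adjusted p = 0.0665, 0.54, 0.168, 0.103 and 0.209).

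Tln2 (ENSMUSG00000052698, chr9:67217087-67559703, minus strand), the talin known from muscle and brain, was higher with the fusion proteins. Tln2 was at 61.6, 58.5 and 58.5 CPM in the EV libraries, 58.0, 86.0 and 61.9 in EVsub, 56.1, 56.5 and 56.7 in CAMTA1 and 60.1, 59.2 and 55.1 in TFE3. For Tln2 the fusion proteins gave 85.7, 82.0 and 85.7 CPM (TAZ-CAMTA1) and 181, 118 and 118 (YAP-TFE3), and the hyperactive forms 43.3, 46.3 and 52.3 (TAZ4SA) and 72.5, 69.0 and 73.0 (YAP5SA). Of the Tln2 values, the TAZ-CAMTA1, YAP-TFE3 and YAP5SA libraries were all above the EV range, the TAZ4SA libraries were all below it, EVsub and TFE3 overlapped it, and CAMTA1 lay below EVsub. The rise was 1.22 ± 0.14 (SE, adjusted p = 2.41e-06) in YAP-TFE3 and 0.50 ± 0.14 (SE, adjusted p = 0.0122) in TAZ-CAMTA1. TAZ-CAMTA1 was higher than TAZ4SA by 0.83 ± 0.14 (SE, adjusted p = 4.39e-05) and YAP-TFE3 higher than YAP5SA by 0.96 ± 0.14 (SE, adjusted p = 2.87e-06), and TAZ-CAMTA1 was lower than YAP-TFE3, -0.72 ± 0.14 (SE, adjusted p = 0.00137).

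Vcl (ENSMUSG00000021823, chr14:20929398-21033676, plus strand), which encodes vinculin, was higher in each of the TAZ and YAP groups. Vcl was at 203, 167 and 208 CPM in the EV libraries, 235, 196 and 216 in EVsub, 309, 323 and 305 in CAMTA1 and 200.2, 198 and 186 in TFE3. With TAZ-CAMTA1 it stood at 260.5, 302 and 292 CPM, with YAP-TFE3 346, 285 and 257, with TAZ4SA 322, 239 and 242 and with YAP5SA 393, 383 and 361. Of the Vcl values, the TAZ-CAMTA1, YAP-TFE3, TAZ4SA and YAP5SA libraries were all above the EV range, EVsub and TFE3 overlapped it, and CAMTA1 lay above EVsub. The rises were 0.98 ± 0.12 (SE, adjusted p = 4.24e-07) in YAP5SA, 0.62 ± 0.12 (SE, adjusted p = 0.00116) in YAP-TFE3, 0.57 ± 0.12 (SE, adjusted p = 0.00209) in TAZ-CAMTA1 and 0.48 ± 0.12 (SE, adjusted p = 0.00234) in TAZ4SA, and 0.53 ± 0.12 (SE, adjusted p = 0.0235) in CAMTA1 against EVsub. For Vcl in TAZ4SA against EV the call was lost with library totals as the only scaling or only the 2 groups in the fit (adjusted p = 0.0585 and 0.0717). Vcl was no longer called between CAMTA1 and EVsub without CAMTA1 replicate 1 or 2 or EVsub replicate 2 or 3 (adjusted p = 0.0728, 0.1, 0.154 and 0.0627) and with only the 2 groups in the fit (adjusted p = 0.137). Fermt2 (a kindlin) ranged from 80.1 to 163 CPM over the libraries and was called in 2 of 7 comparisons, higher in TAZ4SA (0.37) and YAP5SA (0.28). The Fermt2 difference of TAZ4SA from EV lost its call without TAZ4SA replicate 1 (adjusted p = 0.194) and with library totals as the only scaling or only the 2 groups in the fit (adjusted p = 0.197 and 0.166). For Fermt2 in YAP5SA against EV the call was lost without EV replicate 1 or 2 or 3 or YAP5SA replicate 2 (adjusted p = 0.0719, 0.109, 0.0803 and 0.298) and with RLE size factors, library totals as the only scaling, low counts kept, at least 10 counts in every library, only the 2 groups in the fit or DESeq2 (adjusted p = 0.061, 0.492, 0.105, 0.181, 0.0584 and 0.0609, log2 fold change -0.10 with library totals).

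Ilk, Lims1 or Lims2 and Parva form the complex of integrin-linked kinase, PINCH and parvin that sits on the beta tail. Lims2, the less abundant of the PINCH genes here, rose the most of all members. Lims2 was at 0.506, 0.191 and 0.487 CPM in the EV libraries, 0.729, 0.534 and 0.423 in EVsub, 1.87, 1.24 and 1.33 in CAMTA1 and 0.536, 0.464 and 0.488 in TFE3. For Lims2 the fusion proteins gave 3.03, 2.42 and 1.80 CPM (TAZ-CAMTA1) and 6.87, 2.41 and 2.89 (YAP-TFE3), and the hyperactive forms 12.7, 12.5 and 4.35 (TAZ4SA) and 16.3, 16.9 and 13.0 (YAP5SA). Of the Lims2 values, the TAZ-CAMTA1, YAP-TFE3, TAZ4SA and YAP5SA libraries were all above the EV range, EVsub and TFE3 overlapped it, and CAMTA1 lay above EVsub. The log2 fold change was 5.25 ± 0.46 (SE, adjusted p = 1.66e-09) in YAP5SA, 4.60 ± 0.46 (SE, adjusted p = 3.98e-08) in TAZ4SA, 3.30 ± 0.47 (SE, adjusted p = 3.33e-05) in YAP-TFE3 and 2.58 ± 0.49 (SE, adjusted p = 0.00054) in TAZ-CAMTA1. TAZ4SA replicate 3 was lower and YAP-TFE3 replicate 1 higher than the others of their groups.

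Lims1 ranged from 106 to 179 CPM over the libraries and was not called against an empty vector, with the lowest edgeR adjusted p of 0.094 in TAZ4SA against EV. Parva ranged from 172 to 429 CPM over the libraries and was called higher in TAZ-CAMTA1 (0.65), YAP-TFE3 (0.36), YAP5SA (0.32) and EVsub (0.32), and lower in TAZ4SA (-0.41) and TFE3, at -0.41 ± 0.11 (SE, adjusted p = 0.0407). The Parva difference of YAP-TFE3 from EV lost its call without EV replicate 1 or 2 or 3 or YAP-TFE3 replicate 1 or 3 (adjusted p = 0.0581, 0.0889, 0.0855, 0.2 and 0.0678) and with low counts kept (adjusted p = 0.0658). For Parva in YAP5SA against EV the call was lost without YAP5SA replicate 1 (adjusted p = 0.0717) and with library totals as the only scaling, low counts kept or at least 10 counts in every library (adjusted p = 0.678, 0.0531 and 0.0528, log2 fold change -0.05 with library totals). Parva was no longer called between EVsub and EV without EV replicate 1 or 2 or 3 or EVsub replicate 2 (adjusted p = 0.0686, 0.107, 0.0971 and 0.249) and with low counts kept or only the 2 groups in the fit (adjusted p = 0.0878 and 0.131). The Parva difference of TFE3 from EV lost its call without EV replicate 1 or 2 or 3 or TFE3 replicate 2 or 3 (adjusted p = 0.138, 0.0744, 0.126, 0.217 and 0.175) and with low counts kept (adjusted p = 0.0914).

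Ilk (ENSMUSG00000030890, chr7:105736592-105742925, plus strand) could not be measured well from these counts. Ilk was at 0.506, 0.859 and 0.487 CPM in the EV libraries, 0.729, 1.17 and 0.507 in EVsub, 0.973, 1.38 and 0.680 in CAMTA1 and 0.581, 0.633 and 0.383 in TFE3. TAZ-CAMTA1 cells had 0.647, 1.54 and 1.28 CPM of Ilk, YAP-TFE3 cells 0.752, 0.736 and 0.509, TAZ4SA cells 0.347, 0.0749 and 0.571 and YAP5SA cells 0.359, 0.245 and 0.253. Of the Ilk values, the YAP5SA libraries were all below the EV range, EVsub, TFE3, TAZ-CAMTA1, YAP-TFE3 and TAZ4SA overlapped it, and CAMTA1 overlapped EVsub. A library held between 1 and 33 counts of Ilk, and 89.7% of its 2744 exon bases are shared with Rrp8 and Taf10 on the opposite strand, which held 475 to 1640 and 642 to 2441 counts. How the counting assigned reads in shared bases is not given in the sources used here, and no level or change of Ilk is read from these values.

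The called changes of the kinases and adaptors against an empty vector stayed under 1 on the log2 scale. Ptk2 (ENSMUSG00000022607, chr15:73205102-73423280, minus strand), which encodes focal adhesion kinase, had the narrowest range of group means of all tested members, 0.320 on the log2 scale. Ptk2 was at 96.1, 103 and 98.2 CPM in the EV libraries, 108, 116 and 91.4 in EVsub, 115, 107 and 101 in CAMTA1 and 104, 100.2 and 103 in TFE3. For Ptk2 the fusion proteins gave 115, 128 and 128 CPM (TAZ-CAMTA1) and 125, 109 and 111 (YAP-TFE3), and the hyperactive forms 104, 96.1 and 109.6 (TAZ4SA) and 117, 106 and 114 (YAP5SA). Of the Ptk2 values, the TAZ-CAMTA1, YAP-TFE3 and YAP5SA libraries were all above the EV range, EVsub, TFE3 and TAZ4SA overlapped it, and CAMTA1 overlapped EVsub. It was called in TAZ-CAMTA1, 0.32 ± 0.09 (SE, adjusted p = 0.016). The Ptk2 difference of TAZ-CAMTA1 from EV lost its call without EV replicate 1 or 3 or TAZ-CAMTA1 replicate 2 or 3 (adjusted p = 0.0705, 0.0586, 0.0694 and 0.0664) and with low counts kept (adjusted p = 0.0804). Pxn (ENSMUSG00000029528, chr5:115506676-115555987, plus strand) encodes paxillin. Pxn was at 109, 85.8 and 109 CPM in the EV libraries, 86.3, 92.7 and 102 in EVsub, 85.3, 96.0 and 98.8 in CAMTA1 and 84.4, 82.6 and 75.4 in TFE3. TAZ-CAMTA1 cells had 105, 108 and 113 CPM of Pxn, YAP-TFE3 cells 105, 111 and 110.1, TAZ4SA cells 123, 164 and 103 and YAP5SA cells 148, 169 and 154. Of the Pxn values, the YAP5SA libraries were all above the EV range, the TFE3 libraries were all below it, EVsub, TAZ-CAMTA1, YAP-TFE3 and TAZ4SA overlapped it, and CAMTA1 overlapped EVsub. It rose by 0.63 ± 0.13 (SE, adjusted p = 0.000142) in YAP5SA and 0.36 ± 0.13 (SE, adjusted p = 0.0194) in TAZ4SA. Pxn was no longer called between TAZ4SA and EV without EV replicate 2 or TAZ4SA replicate 2 (adjusted p = 0.119 and 0.232) and with library totals as the only scaling or only the 2 groups in the fit (adjusted p = 0.202 and 0.218).

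Bcar1, the adaptor p130Cas, ranged from 69.5 to 158 CPM over the libraries and rose in YAP5SA (0.82), TAZ4SA (0.58) and EVsub (0.39). Its relative Nedd9 ranged from 37.4 to 118 CPM over the libraries and was higher in TAZ-CAMTA1 (0.77) and TAZ4SA (0.67) and lower in YAP5SA (-0.64). Src ranged from 55.5 to 108 CPM over the libraries and was called higher in YAP5SA (0.28). Tgfb1i1, a relative of paxillin, ranged from 39.7 to 87.6 CPM over the libraries and rose at sub-confluence by 0.69 ± 0.13 (SE, adjusted p = 0.000712). The Bcar1 difference of EVsub from EV lost its call without EV replicate 1 or 2 or EVsub replicate 1 or 2 (adjusted p = 0.0687, 0.07, 0.0617 and 0.131) and with only the 2 groups in the fit (adjusted p = 0.118). For Nedd9 in TAZ-CAMTA1 against EV the call was lost without EV replicate 1 or 3 (adjusted p = 0.0888 and 0.0562). Nedd9 was no longer called between TAZ4SA and EV without EV replicate 1 (adjusted p = 0.0737) and with library totals as the only scaling (adjusted p = 0.0579). The Nedd9 difference of YAP5SA from EV lost its call without EV replicate 2 or YAP5SA replicate 3 (adjusted p = 0.122 and 0.0527). For Src in YAP5SA against EV the call was lost without EV replicate 2 or YAP5SA replicate 1 (adjusted p = 0.123 and 0.149) and with library totals as the only scaling, low counts kept, at least 10 counts in every library or only the 2 groups in the fit (adjusted p = 0.511, 0.091, 0.114 and 0.0634, log2 fold change -0.09 with library totals). With YAP-TFE3 the kinase or adaptor furthest from EV was Nedd9, at 0.55 ± 0.21 (SE, adjusted p = 0.0882), and with TAZ-CAMTA1 Ptk2 and Nedd9 were called.

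Zyx (ENSMUSG00000029860, chr6:42349630-42360213, plus strand), which encodes zyxin of mature adhesions and stress fibres, separated the hyperactive proteins from the fusion proteins. Zyx was at 505, 441 and 572 CPM in the EV libraries, 520.5, 584 and 540.4 in EVsub, 459, 613 and 629 in CAMTA1 and 499, 457 and 427 in TFE3. For Zyx the fusion proteins gave 507, 581 and 506 CPM (TAZ-CAMTA1) and 373, 420.5 and 452 (YAP-TFE3), and the hyperactive forms 997, 1325 and 1166 (TAZ4SA) and 1118, 1229.6 and 1134 (YAP5SA). Of the Zyx values, the TAZ4SA and YAP5SA libraries were all above the EV range, EVsub, TFE3, TAZ-CAMTA1 and YAP-TFE3 overlapped it, and CAMTA1 overlapped EVsub. The rise was 1.2001 ± 0.13 (SE, adjusted p = 1.67e-07) in TAZ4SA and 1.197 ± 0.13 (SE, adjusted p = 6.4e-08) in YAP5SA, with values of 0.07 ± 0.13 (SE, adjusted p = 0.755) in TAZ-CAMTA1 and -0.29 ± 0.13 (SE, adjusted p = 0.164) in YAP-TFE3. Tested directly, TAZ-CAMTA1 was lower than TAZ4SA (-1.13 ± 0.13 SE, adjusted p = 5.53e-07) and YAP-TFE3 lower than YAP5SA (-1.48 ± 0.14 SE, adjusted p = 3.42e-09). The tensins bind beta tails and actin. Tns3 ranged from 146 to 396 CPM over the libraries and rose in TAZ-CAMTA1 (0.80), YAP-TFE3 (0.75), YAP5SA (0.65) and TAZ4SA (0.49). Tns1 ranged from 101 to 337 CPM over the libraries, fell in YAP5SA (-0.86) and rose in YAP-TFE3 (0.57). The Tns3 difference of YAP5SA from EV lost its call with library totals as the only scaling (adjusted p = 0.129). For Tns3 in TAZ4SA against EV the call was lost with library totals as the only scaling (adjusted p = 0.0885). Tns1 was no longer called between YAP-TFE3 and EV without YAP-TFE3 replicate 1 (adjusted p = 0.0556).

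**Figure D4:**
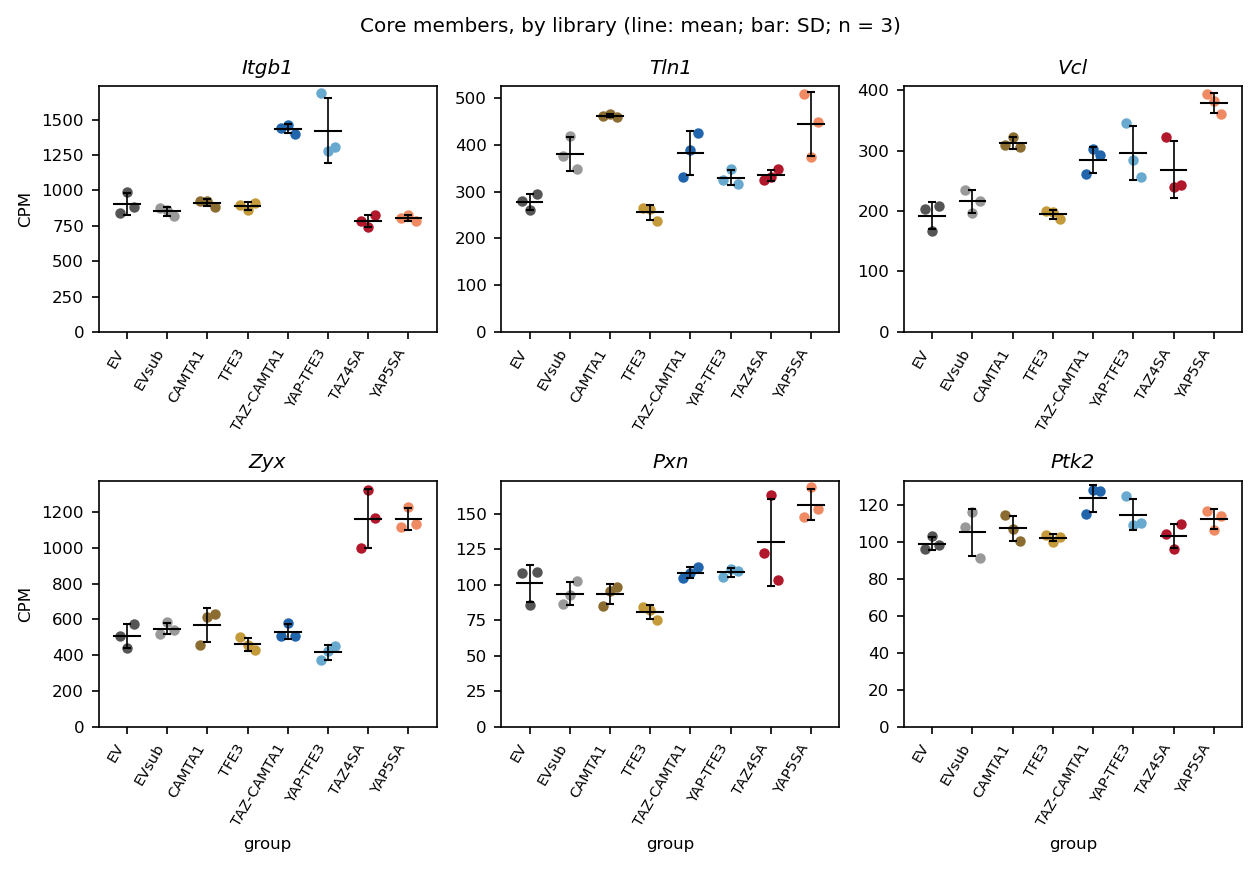
Each point is the CPM of 1 library on a linear axis from 0, by group, for Itgb1, Tln1, Vcl, Zyx, Pxn and Ptk2, with a line at the mean and a bar for the SD of 3 libraries. Itgb1 is higher in the TAZ-CAMTA1 and YAP-TFE3 libraries than in all others, and Zyx is higher in the TAZ4SA and YAP5SA libraries than in all others.

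Each fusion protein was then compared directly with the hyperactive, serine-mutated form of the protein that gives its amino terminus. Between TAZ-CAMTA1 and TAZ4SA 20 of 33 members were called, 13 higher and 7 lower with the fusion protein, where 54.7% of all genes were called, 26.6% higher and 28.1% lower. The largest differences upward were Itgb8 at 2.97 ± 0.27 (SE, adjusted p = 1.97e-08), Itga8 at 1.74 ± 0.27 (SE, adjusted p = 1.94e-05) and Parva at 1.06 ± 0.11 (SE, adjusted p = 1.26e-07), and Ilk, also called, is left aside for the reason given. The largest downward were Lims2 at -2.02 ± 0.37 (SE, adjusted p = 0.000104), Itgb7 at -1.85 ± 0.35 (SE, adjusted p = 0.000141) and Itgb4 at -1.50 ± 0.26 (SE, adjusted p = 6.06e-05). Itgb3, which had the next largest upward difference, was at 1.01 ± 0.33 (SE, adjusted p = 0.0123). The Itgb3 difference of TAZ-CAMTA1 from TAZ4SA lost its call without TAZ4SA replicate 3 or TAZ-CAMTA1 replicate 1 (adjusted p = 0.0718 and 0.0823) and with only the 2 groups in the fit (adjusted p = 0.0599). Itga1, Itga6 and Itga7, which rose in both groups against EV, were at 0.13 ± 0.30 (SE, adjusted p = 0.739), -0.15 ± 0.16 (SE, adjusted p = 0.44) and -0.27 ± 0.27 (SE, adjusted p = 0.414), and the 95% interval of the Itga7 difference ran from -0.80 to 0.26. Further calls that held under every alternative and with each library left out, as log2 fold changes, were Itga3 (0.87) and Itgav (0.66), higher, and Fermt2 (-0.56), lower. Of the 20 calls, 10 were tested and held in all these settings, and Ilk, Itgb7 and Lims2 held in all but the filter that did not test them.

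Between YAP-TFE3 and YAP5SA 28 members were called, 13 higher and 15 lower with the fusion protein, where 70.9% of all genes were called, 36.4% higher and 34.5% lower. With library totals as the only scaling 64.0% of the called members were higher, against 46.4% with TMM. Among all called genes these shares were 67.6% and 51.4%. Itga8 (4.79 ± 0.33 SE, adjusted p = 6.1e-11), Itga11 (3.37 ± 0.38 SE, adjusted p = 7.47e-08), Itga10 (2.88 ± 0.43 SE, adjusted p = 3.62e-06) and Itgb3 (2.35 ± 0.35 SE, adjusted p = 3e-06) were higher with YAP-TFE3. Itgb4 (-3.29 ± 0.29 SE, adjusted p = 2.55e-09), Itgb7 (-3.20 ± 0.39 SE, adjusted p = 2.03e-07), Lims2 (-1.95 ± 0.36 SE, adjusted p = 4.45e-05) and Itga3 (-1.79 ± 0.23 SE, adjusted p = 3.94e-07) were lower. Further calls that held under every alternative and with each library left out, as log2 fold changes, were Itga9 (2.06), Itgav (1.22), Itgb5 (0.78), Itgb8 (1.91), Nedd9 (1.19) and Tns1 (1.43), higher, and Itga5 (-0.73), Itga6 (-1.53), Itga7 (-1.36) and Bcar1 (-0.75), lower. All 10 alpha subunits and all 6 beta subunits that were tested were called in this comparison. Of the 28 calls, 18 were tested and held in all these settings, and Itga10, Itgb7 and Lims2 held in all but the filter that did not test them.

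**Figure D5:**
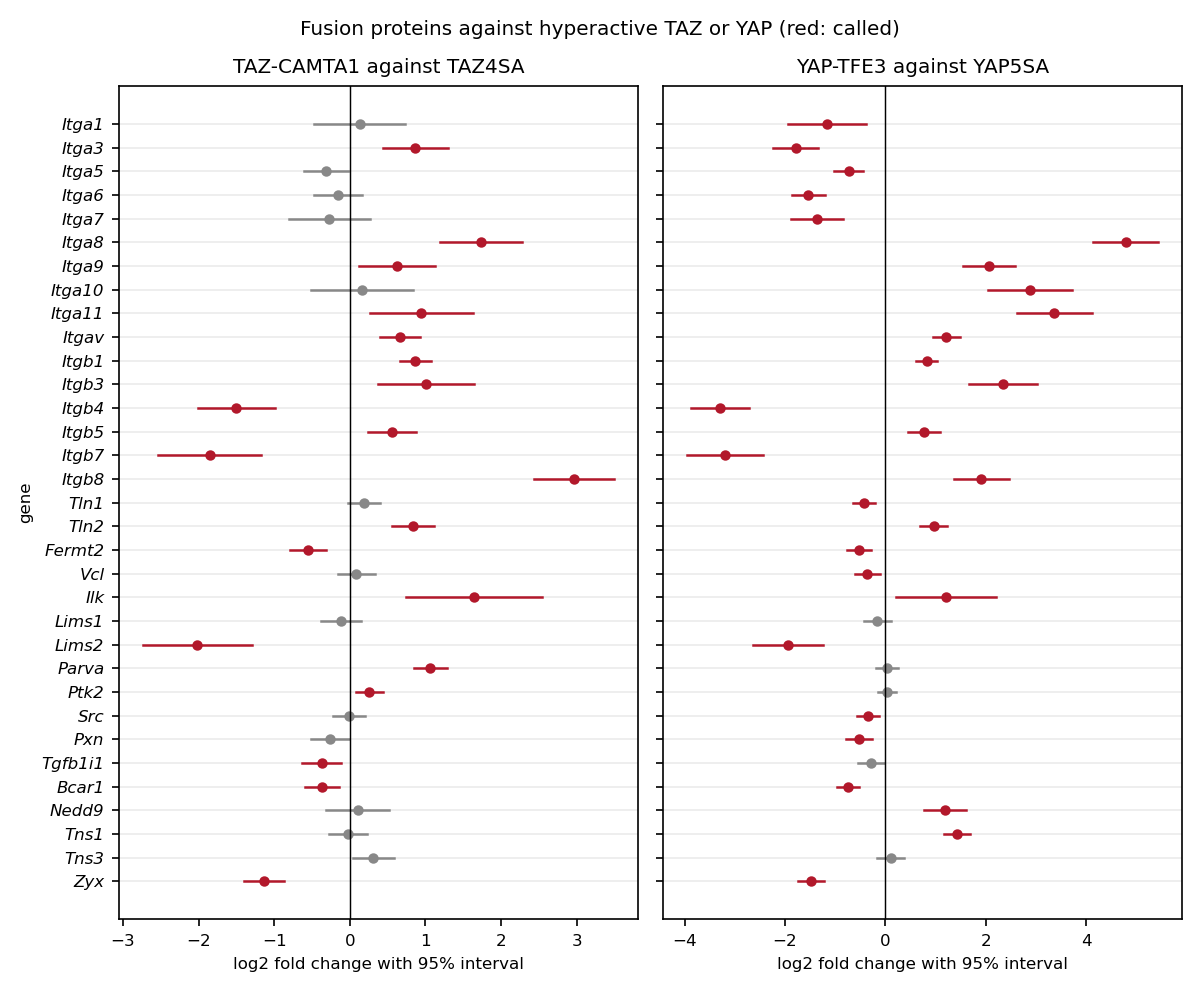
Points are log2 fold changes and lines their 95% intervals for the 33 tested members, TAZ-CAMTA1 against TAZ4SA on the left and YAP-TFE3 against YAP5SA on the right, with called differences in red. Itgb1, Itgb3, Itgb8 and Itga8 lie to the right of 0 in both panels, and Zyx, Lims2, Itgb4 and Itgb7 to the left.

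Between the fusion proteins 12 members were called, 6 higher and 6 lower with TAZ-CAMTA1 (11.6% of all genes, 5.32% higher and 6.32% lower). Higher were Itga1 (2.80 ± 0.36 SE, adjusted p = 1.41e-05), Itgb4 (1.74 ± 0.30 SE, adjusted p = 0.000361), Itgb7 (1.55 ± 0.39 SE, adjusted p = 0.0116) and Itgb8, given above. Lower were Itga11 (-1.08 ± 0.34 SE, adjusted p = 0.0403), Itga7 (-0.98 ± 0.27 SE, adjusted p = 0.0195), Itgb5 (-0.84 ± 0.16 SE, adjusted p = 0.00132) and Tns1 (-0.84 ± 0.13 SE, adjusted p = 0.00014). For Itgb7 in TAZ-CAMTA1 against YAP-TFE3 the call was lost without TAZ-CAMTA1 replicate 2 or 3 (adjusted p = 0.0535 and 0.0527). Itga11 was no longer called between TAZ-CAMTA1 and YAP-TFE3 without TAZ-CAMTA1 replicate 1 or 2 or 3 or YAP-TFE3 replicate 1 or 2 (adjusted p = 0.0511, 0.164, 0.125, 0.272 and 0.0524). The Itga7 difference of TAZ-CAMTA1 from YAP-TFE3 lost its call without TAZ-CAMTA1 replicate 2 or 3 or YAP-TFE3 replicate 1 (adjusted p = 0.0897, 0.0582 and 0.249) and with only the 2 groups in the fit (adjusted p = 0.0507). A further call that held under every alternative and without any 1 library was Itga3 (1.46), higher. Leaving out TAZ-CAMTA1 replicate 3 left 7 of the 12 calls, while calls over all genes went from 1671 to 899.

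Between the hyperactive proteins 17 members were called, 9 higher and 8 lower with YAP5SA (42.4% of all genes, 19.6% higher and 22.8% lower). The alpha subunits accounted for 9 of these calls. Itga7 (2.07 ± 0.28 SE, adjusted p = 7.5e-06), Itga3 (1.2001 ± 0.22 SE, adjusted p = 0.000227), Parva (0.73 ± 0.11 SE, adjusted p = 3.09e-05) and Itga5 (0.70 ± 0.15 SE, adjusted p = 0.000715) were higher, and Itga8 (-2.52 ± 0.33 SE, adjusted p = 5.37e-06), Itga10 (-2.29 ± 0.45 SE, adjusted p = 0.000414), Itga1 (-1.51 ± 0.34 SE, adjusted p = 0.00127) and Itga11 (-1.34 ± 0.37 SE, adjusted p = 0.00591) were lower with YAP5SA. Further calls that held under every alternative and without any 1 library were Itga6 (0.69), Itgb5 (0.62) and Tln2 (0.59), higher, and Itgav (-0.67), Nedd9 (-1.31) and Tns1 (-0.61), lower. For Itgb4 and Zyx the differences were 0.05 ± 0.25 (SE, adjusted p = 0.89) and -0.00290 ± 0.13 (SE, adjusted p = 0.991), with 95% intervals from -0.44 to 0.54 and from -0.26 to 0.26.

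Few members were called with the full-length partners. With TFE3 the calls were Itgb3, Itgb5 and Parva, whose values are given above, and 1 call remained without EV replicate 1, EV replicate 3 or TFE3 replicate 2. Calls over all genes numbered 286, 227 and 199 in these fits, against 485 with all libraries. With CAMTA1 the calls were Itga6, Vcl and Itga11. None remained in edgeR without CAMTA1 replicate 1, CAMTA1 replicate 2 or EVsub replicate 2, where 10, 7 and 8 members had an unadjusted p under 0.05, and without EVsub replicate 3 there was 1 call. Calls over all genes numbered 118, 95, 72 and 192 in these CAMTA1 fits, against 313 with all libraries. DESeq2 called 5 members in this comparison and 639 of all genes. Between EVsub and EV, the comparison of density, Itgb7, Itga3, Tgfb1i1 and Tln1 rose and Itgb8, Itgb3 and Itga8 fell, beside smaller calls for Itga6, Bcar1, Parva and Itgav. Without EV replicate 1 or EVsub replicate 2 there were 7 calls in place of 11, and 2121 and 2098 in place of 3173 over all genes.

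Other adhesion proteins were taken from a list of 46 genes, 42 of them tested. With YAP5SA 23 rose and 9 fell, with TAZ4SA 18 and 12, with TAZ-CAMTA1 14 and 6, and with YAP-TFE3 13 and 3. The shares called over all genes were 71.2%, 57.5%, 21.5% and 15.3% in the same order. In EVsub 9 rose and 2 fell, in TFE3 1 and 2, and in CAMTA1 5 rose, beside 22.1%, 3.38% and 2.18% of all genes called. The median log2 fold change of the list was 0.53 with YAP5SA (0.01 over all genes), 0.18 with TAZ4SA (0.05 over all genes), 0.12 with TAZ-CAMTA1 (0 over all genes) and 0.12 with YAP-TFE3 (0 over all genes). Among the largest rises with YAP5SA, as log2 fold change ± SE, were Dlc1 (2.70 ± 0.15), Tns4 (2.40 ± 0.48), a short tensin, and Cd151 (2.14 ± 0.14), a tetraspanin that associates with laminin-binding integrins. The deepest falls there were Csrp1 (-1.73 ± 0.12), Sdc4 (-1.62 ± 0.17), the syndecan of focal adhesions, Dock1 (-1.40 ± 0.10) and Pip5k1c (-1.28 ± 0.13). In TAZ4SA cells Parvg (2.95 ± 0.67), a parvin known from blood cells, and Tns4 (2.93 ± 0.46) rose furthest and Dock1 (-1.27 ± 0.10) fell furthest. Tns4 also led the rises with the fusion proteins, at 2.42 ± 0.47 in TAZ-CAMTA1 and 2.98 ± 0.45 in YAP-TFE3. Ptk2b (-1.11 ± 0.23), the relative of focal adhesion kinase, fell furthest in TAZ-CAMTA1, and Evl (-0.88 ± 0.19), an actin regulator at adhesions, fell furthest in YAP-TFE3. Directly compared, 12 genes of the list were higher and 13 lower in TAZ-CAMTA1 than in TAZ4SA, where 54.7% of all genes were called. In YAP-TFE3 12 were higher and 17 lower than in YAP5SA, where 70.9% of all genes were called.

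Of 26 integrin ligands, 23 were tested, and laminin chains were among the genes that moved furthest. The counts of rises and falls were 11 and 9 with YAP5SA, 11 and 10 with TAZ4SA, 11 and 2 with TAZ-CAMTA1, and 13 and 2 with YAP-TFE3, beside 71.2%, 57.5%, 21.5% and 15.3% of all genes called. They were 3 and 6 in EVsub and 2 and 1 in CAMTA1, and 1 fell in TFE3, beside 22.1%, 2.18% and 3.38% of all genes called. The median log2 fold change of the list was -0.08 with YAP5SA (0.01 over all genes), 0.06 with TAZ4SA (0.05 over all genes), 0.56 with TAZ-CAMTA1 (0 over all genes) and 0.56 with YAP-TFE3 (0 over all genes). Lamb3, a chain of the laminin of hemidesmosomes, had no count in the EV libraries and rose to a mean of 5.07 CPM with TAZ-CAMTA1, 0.522 with YAP-TFE3, 0.829 with TAZ4SA and 4.71 with YAP5SA. Lama5, a chain of basement membrane laminins, rose from 0.697 ± 0.0542 CPM (SD, n = 3) in EV to 4.48 ± 0.930 with TAZ-CAMTA1, 14.4 ± 8.16 with YAP-TFE3, 45.8 ± 8.63 with TAZ4SA and 73.6 ± 18.5 with YAP5SA. Vtn, which encodes vitronectin, rose in the same 4 groups, from 0.0447 CPM in EV to 5.59 with TAZ4SA. Spp1 (osteopontin) fell from 1881 ± 399 CPM in EV to 26.5 ± 9.81 with YAP5SA, with a log2 fold change of -6.15 ± 0.44. Edil3 (-5.08 ± 0.35), an RGD protein, Lama4 (-2.92 ± 0.34) and Emilin1 (-2.67 ± 0.19) fell next furthest in YAP5SA. Npnt, the nephronectin that Itga8 binds, rose in TAZ-CAMTA1, 1.27 ± 0.17, and in EVsub, 2.00 ± 0.17. In CAMTA1 cells Thbs1 (1.69 ± 0.31), thrombospondin, rose and Lama4 (-1.65 ± 0.33) fell against EVsub.

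Of the 8 integrin subunits outside the members, 5 were tested. Itgam, a subunit of myeloid cells, rose from 0.0159 ± 0.0276 CPM in EV to 1.32 ± 1.05 with TAZ4SA and 1.13 ± 0.217 with YAP5SA (SD, n = 3). In the same comparisons Itgb2, the beta partner of Itgam, fell by 1.64 and 1.15 and Itga2b, the platelet subunit, by 0.64 and 0.99 on the log2 scale, and with YAP5SA Itgal fell by 2.69. With TAZ-CAMTA1 and YAP-TFE3 Itgam was at 0.0537 ± 0.0618 and 0.0557 ± 0.0510 CPM and was not called.

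Likeness of pattern was described by Pearson's correlation of log2 CPM over the 8 group means, which rest on the same libraries and the same scaling. The members closest to Itgb1 were Tln2 (0.817), Itgav (0.808) and Itga9 (0.801), and over the 11362 other genes with a mean count of at least 50 the closest were Ccnyl1 (0.98), Plau (0.955) and Zfp57 (0.952). For Itgb7, the member with the widest range, they were Bcar1 (0.93), Itga6 (0.898) and Zyx (0.815) among members and Pank4 (0.992), March5 (0.982) and Zfp865 (0.98) among all genes.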

How the data were processed

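RNA was extracted from 24 cultures of NIH 3T3 lines, and polyadenylated, stranded libraries were sequenced. The authors deposited 1 table of raw read counts per gene for each library, and the methods and labels name bcl2fastq, bcbio-nextgen, Hisat2 and an Ensembl annotation on mm10. The program that counted the reads and its strand setting are not given in the sources used here. The study built its own gene lists from a Salmon and DESeq2 route, which was not used here. Of the 39017 identifiers, 37607 matched GENCODE M21, which gave symbols, positions on GRCm38 and exon lengths.

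Counts were scaled by TMM and fitted over all 8 groups with edgeR 4.0.16 in R 4.3.3 (quasi-likelihood test, two-sided, 14361 genes with a mean count of at least 5, Benjamini-Hochberg adjusted p under 0.05). SE is the log2 fold change over the root of its F statistic, and 95% intervals are normal. Levels are CPM on TMM-scaled library sizes, and depth between 16471181 and 30132586 counts limits the precision of members at a few counts. The procedure was run on simulated counts with few changed genes. That setting is unlike the TAZ4SA and YAP5SA comparisons, so the run does not test their scaling. Alternatives were RLE size factors, library totals, no filter, at least 10 counts in every library, a replicate block, only the 2 groups compared, DESeq2 1.42.0, and each library left out. Tables and plots used Python 3.11.15, pandas 2.3.3 and matplotlib 3.10.9.

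The members and gene lists were chosen with earlier results of these data known. Members whose called log2 fold change against an empty vector was 1 or more in size, and the core members Itgb1, Itgav, Itga5, Tln1, Vcl, Ilk, Ptk2, Pxn and Zyx, are given in every library, and the others by range and count. Up to 4 rises and 4 falls per comparison have an SE and adjusted p, and genes outside the members come from the lists by the same limit, and 1 gene of a list that the limit would name is not reported here. Groups and replicate numbers come from the sample titles, and for YAP-TFE3 replicate 3 the description carries another number. Promoter sequences are from RefSeq on GRCm38.p6.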

Additional observations from a re-analysis of the deposited data

How the results depend on the processing

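The number of called members stayed within 1.5 times the reported count under most settings, with these exceptions. In fits of the 2 groups alone, EVsub against EV fell to 7 calls, TFE3 against EV rose to 5 and CAMTA1 against EVsub fell to 0, where edgeR gave 10 members an unadjusted p under 0.05. Calls over all genes went from 3173 to 1683, from 485 to 1512 and from 313 to 22 in that order. CAMTA1 against EVsub had 5 calls with no filter on low counts and 5 with DESeq2, beside 674 and 639 over all genes. With 1 library left out the calls ranged from 7 to 10 for EVsub against EV, from 1 to 3 for TFE3 against EV, from 0 to 4 for CAMTA1 against EVsub and from 7 to 11 for TAZ-CAMTA1 against YAP-TFE3. Calls over all genes then ranged from 1971 to 3668, from 192 to 286, from 72 to 710 and from 835 to 1549 in that order. With library totals as the only scaling, 5 single differences turned their direction: Fermt2 (-0.1002), Parva (-0.0498) and Src (-0.0881) in YAP5SA against EV, and Vcl (0.0005) and Src (0.0108) in YAP-TFE3 against YAP5SA. In these 5 cases the shift of all genes by library totals is as large as or larger than the change of the gene.

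Replicate numbers did not pair the libraries: in no comparison did every same-number pair correlate above 0.1 in its deviations from the group means, or every library correlate best with its own number. With the replicate block the calls numbered 10 (EVsub), 20 (TAZ4SA), 26 (YAP5SA), 16 (TAZ-CAMTA1), 13 (YAP-TFE3), 2 (TFE3) and 3 (CAMTA1) against the empty vectors. They were 20 for TAZ-CAMTA1 against TAZ4SA, 28 for YAP-TFE3 against YAP5SA, 12 for TAZ-CAMTA1 against YAP-TFE3 and 17 for YAP5SA against TAZ4SA. The block ended 5 calls: Parva in EVsub (adjusted p = 0.0506) and TFE3 (0.0565), Tln1 in TAZ4SA (0.0549), Fermt2 in YAP5SA (0.0553), each against EV, and Itgb3 in YAP5SA against TAZ4SA (0.0598). Members with few counts, such as Ilk, Lims2, Itga1 and Itga10, have the least precise values.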
